A study of Homo sapiens with 12 samples.

Results

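The genes described here are 33 genes of glycolysis, glucose and lactate handling, measured in breast cancer tissue that was cultured alone or beside a second tissue. They were chosen by name from the 58735 genes of the count table, as glucose transporters, glycolytic enzymes, lactate and pyruvate genes and glycogen enzymes. Earlier results of these data were known when they were chosen, so counts of calls describe the set and do not test it. All 33 were in the table and all 33 were among the 17468 genes that passed the filter on low counts and were tested. The tissue was made of MDA-MB-231 cells, a human triple-negative breast cancer line, carrying a green fluorescent protein (GFP) and held in fibrin gel in a perfused plate (AngioPlate), with flow in every condition. It was grown alone (monoculture), with hepatic tissue made of HepG2 hepatoma-derived cells and 2% lung fibroblasts (hepatic co-culture), or with cardiac tissue made of cardiomyocytes from induced pluripotent stem cells and 2% cardiac fibroblasts (cardiac co-culture). RNA came from the cancer tissue alone, taken from the middle well 5 days after the cancer cells were seeded. There were 4 libraries in each condition, called biological replicates in the labels. No label names the seeding or plate of a replicate. Unless said otherwise, the spread that p-values rest on was estimated within the conditions from all 12 libraries together, and it may be technical. The comparisons ask how the cancer tissue's expression depended on the organ tissue beside it.

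Glycolysis splits glucose into pyruvate. Glucose enters through transporters of the GLUT family, is trapped by hexokinase, is committed to breakdown by phosphofructokinase, and passes through aldolase, triose phosphate isomerase, glyceraldehyde phosphate dehydrogenase, phosphoglycerate kinase, phosphoglycerate mutase, enolase and pyruvate kinase. Cancer cells commonly turn much of the pyruvate into lactate by lactate dehydrogenase and export it through monocarboxylate transporters, while pyruvate dehydrogenase and the mitochondrial pyruvate carrier lead it into mitochondria. Many genes of the pathway are textbook targets of the hypoxia-inducible factors (HIF), which bind the letters ACGTG or GCGTG in DNA.

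Promoters of the set were searched for these letters on both strands, from 250 bases before to 50 bases after each start in the RefSeq promoter table (GRCh38.p14). The table held 58 promoters for 30 of the 33 genes, and SLC2A3, PFKFB2 and SLC16A1 had no entry. A core was present in 37 of these 58 promoters (63.8%) and in 48.4% of all 35116 promoters of the table. Some promoters of the same gene overlap, as for HK1 and PFKM, so the 58 are not separate units. By gene, 27 of the 30 had a core in any promoter, a figure not computed for all genes. The promoters of HK2, LDHA and ALDOC are shown because they held at least 5 matches, as 1.98% of all promoters did, and that of SLC2A12 because this gene had the smallest adjusted p and its promoter held 0 matches. These 4 were chosen after their values were seen. They lie at chr2:74834920-74835219 on the plus strand (HK2, 6 matches), chr11:18394313-18394612 on the plus strand (LDHA, 6 matches), chr17:28576846-28577145 on the minus strand (ALDOC, 5 matches) and chr6:134052575-134052874 on the minus strand (SLC2A12). Each is written 5′ to 3′ with the core letters in capitals, and CACGTG counts as 2 overlapping matches, since it holds ACGTG on either strand.
HK2: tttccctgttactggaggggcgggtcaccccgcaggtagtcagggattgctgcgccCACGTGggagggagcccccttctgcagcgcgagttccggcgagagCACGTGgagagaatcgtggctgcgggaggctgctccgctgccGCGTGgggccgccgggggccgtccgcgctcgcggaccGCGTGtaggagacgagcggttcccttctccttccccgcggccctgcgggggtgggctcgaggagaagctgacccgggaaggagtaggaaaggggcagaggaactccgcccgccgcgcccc
LDHA: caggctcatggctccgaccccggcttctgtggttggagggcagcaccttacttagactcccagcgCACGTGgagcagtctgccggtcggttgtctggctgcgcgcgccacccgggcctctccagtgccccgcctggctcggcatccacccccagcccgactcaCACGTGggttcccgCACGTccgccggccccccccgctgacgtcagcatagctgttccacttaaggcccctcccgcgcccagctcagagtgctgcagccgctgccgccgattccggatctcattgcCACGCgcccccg
ALDOC: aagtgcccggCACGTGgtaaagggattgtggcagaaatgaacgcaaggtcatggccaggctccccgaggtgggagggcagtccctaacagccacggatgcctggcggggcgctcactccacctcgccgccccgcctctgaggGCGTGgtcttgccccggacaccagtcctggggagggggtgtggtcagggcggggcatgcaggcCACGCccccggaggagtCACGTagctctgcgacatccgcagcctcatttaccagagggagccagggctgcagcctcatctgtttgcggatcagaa
SLC2A12: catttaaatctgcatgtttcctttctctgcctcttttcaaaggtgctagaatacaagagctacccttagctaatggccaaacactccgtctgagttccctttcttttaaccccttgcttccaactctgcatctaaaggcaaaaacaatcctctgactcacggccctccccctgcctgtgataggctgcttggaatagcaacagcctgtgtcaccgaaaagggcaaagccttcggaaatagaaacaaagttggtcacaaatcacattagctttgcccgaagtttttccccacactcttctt
A match in these windows describes the letters and shows no binding. In the values below, HK2 and ALDOC were higher in the hepatic co-culture, LDHA passed the test in neither co-culture, and SLC2A12 was higher in both.

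Each library held between 26.2 and 42.4 M counts, where M is 1e6. The 8 markers of the cancer line were present in every condition. They summed to 3821 to 4035 CPM (counts per 1e6 counts, scaled by TMM) in monoculture. The sums were 3995 to 4142 in hepatic and 3667 to 3801 in cardiac co-culture. Single markers did change: 2 were higher and 3 lower in the hepatic co-culture, with log2 fold changes from -0.84 to 0.59. In the cardiac, 0 were higher and 3 lower, from -0.74 to 0.34. Of all tested genes, 14.4% and 13.6% were called in the hepatic and 4.93% and 3.33% in the cardiac. Of 15 hepatocyte markers only 2 were tested. The 15 summed to 44.1 to 75.8 CPM in monoculture, 38.5 to 60.7 in hepatic and 71.8 to 98.4 in cardiac co-culture. APOA2, APOB and TM4SF5 were at 0 counts in all hepatic and all monoculture libraries. TTR and AHSG were at 0 in all monoculture libraries but not throughout the hepatic ones, where TTR reached 1 count. ALB reached at most 14 counts in monoculture and 6 in hepatic co-culture. Of 14 cardiomyocyte markers 1 was tested, with sums of 2.30 to 3.39, 0.776 to 2.10 and 1.36 to 4.71 CPM, and 6 were at 0 in all monoculture, 5 in all hepatic and 2 in all cardiac libraries. MYH6 and MYL7 were at 0 in every monoculture and hepatic library, and MYH6 reached 21 counts in cardiac replicate 4, while MYH7 and NPPB were at 0 in all cardiac libraries. The 10 fibroblast markers, 6 of them tested, summed to 9.91 to 16.7, 11.7 to 23.9 and 12.3 to 13.2 CPM, with THY1 and POSTN at 0 in all 12 libraries. Of those 6, 2 were higher (COL1A2 and COL3A1) and 1 lower (DCN) in the hepatic co-culture, with log2 fold changes from -3.10 to 2.84. In the cardiac 0 passed, with a range from -0.68 to 1.95. Of the 2 tested hepatocyte markers, 1 was higher in the hepatic co-culture (log2 fold change 0.75) and the other did not pass (-0.30). The part of these markers in the results was not tested. Isozymes that mark liver (8 genes, among them SLC2A2 and G6PC at 0 in all hepatic libraries) and muscle (6 genes) summed to at most 6.66 and 22.3 CPM. Fewer cells of a type and less RNA per cell cannot be told apart in such bulk samples.

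A pair of libraries stood apart for the glycolytic genes. Monoculture replicate 2 was the highest of its group for 26 of the 33 genes, against 25.9% of all tested genes, and cardiac replicate 4 was the lowest of its group for 28, against 32.0%. The typical (median) gene of the set stood at 1.27 times the monoculture mean in monoculture replicate 2 and at 1.17 times in cardiac replicate 4, but at 1.66, 1.70 and 1.47 times in cardiac replicates 1 to 3. Cardiac replicate 4 lay below monoculture replicate 2 for 21 genes and within the monoculture range for 23. Of the 25 genes for which cardiac replicates 1 to 3 all lay above the monoculture range, cardiac replicate 4 was also above it for 8. Counts of genes called are therefore given with and without these libraries, both of which were kept in the values otherwise given. Both libraries were singled out by the values of these same genes. Leaving out the highest monoculture library or the lowest cardiac library of a gene raises its co-culture difference by construction. Calls gained in this way describe the spread and give no added support.

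More genes of the set passed as higher than as lower in each co-culture. In the hepatic co-culture 16 of the 33 genes were higher than in monoculture and 3 were lower, at an adjusted p below 0.05 (edgeR quasi-likelihood test, Benjamini-Hochberg over all tested genes), while 14.4% of all tested genes were higher and 13.6% lower (28.0% together). Without monoculture replicate 2 the number higher was 23, and without cardiac replicate 4 it was 20. It was 10 without monoculture replicate 4 or hepatic replicate 1. All genes called in either direction were 4628, 5529, 3712 and 4338 in these fits, in this order, against 4892 with all libraries. In the cardiac co-culture 13 were higher and 1 was lower, against 4.93% and 3.33% of all tested genes (8.26% in either direction). Leaving out monoculture replicate 2 or cardiac replicate 4 gave 26 genes higher in either case. All genes called were 1504 and 3378 in these fits, against 1443 with all libraries. Leaving out monoculture replicates 1, 3 or 4 gave 6, 7 and 6 genes higher, with 558, 369 and 518 of all genes called. Leaving out cardiac replicates 1, 2 or 3 gave 5, 4 and 7, with 523, 263 and 397 of all genes called. In these fits the member counts moved in the direction of all genes called, except without monoculture replicate 2. Without that library the hepatic count rose from 16 to 23 while all genes called fell from 4892 to 4628. The cardiac count rose from 13 to 26, with all genes called at 1504 against 1443. DESeq2 called 20 higher in hepatic and 26 higher in cardiac co-culture, with 5458 and 2406 of all genes called. The median log2 fold change of the set was 0.51 in hepatic and 0.61 in cardiac co-culture, and that of all tested genes 0.01 in each. Between the co-cultures 1 gene was higher in the cardiac and 1 in the hepatic tissue, where 3.27% and 2.91% of all tested genes were called (6.18% together), and the set's median difference was 0.09.

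Both comparisons use the same monoculture libraries, so their calls are set side by side and not counted as separate evidence. There were 9 genes higher in both co-cultures (SLC2A12, GPI, PFKL, PFKP, ALDOA, GAPDH, PGAM1, ENO2 and SLC16A3) and 1 lower in both (PFKFB2). A further 7 passed as higher in the hepatic co-culture alone (SLC2A3, HK2, PFKFB3, ALDOC, TPI1, ENO1 and PYGL) and 4 in the cardiac alone (PKM, PDK3, PGM1 and GYS1), but none of these 11 differed between the co-cultures by the test. PDHA1 and MPC1 passed as lower in the hepatic co-culture alone. The other 10 genes passed in neither. With only the 2 groups compared in the edgeR fit, 11 genes were higher in the cardiac co-culture. There the cardiac calls of GAPDH, PGAM1 and ENO2 were lost (adjusted p = 0.058, 0.0638 and 0.101), and PYGL passed (adjusted p = 0.0411). In the hepatic co-culture such a fit gave 16 higher, with ALDOC lost (adjusted p = 0.054) and GBE1 gained (adjusted p = 0.0482). No overlap between the 4 libraries of each group was seen for 17 genes higher and 3 lower in the hepatic co-culture, against 15.1% and 15.4% of all tested genes, and for 8 higher and 1 lower in the cardiac co-culture, against 7.77% and 7.47%.

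**Figure D1:**
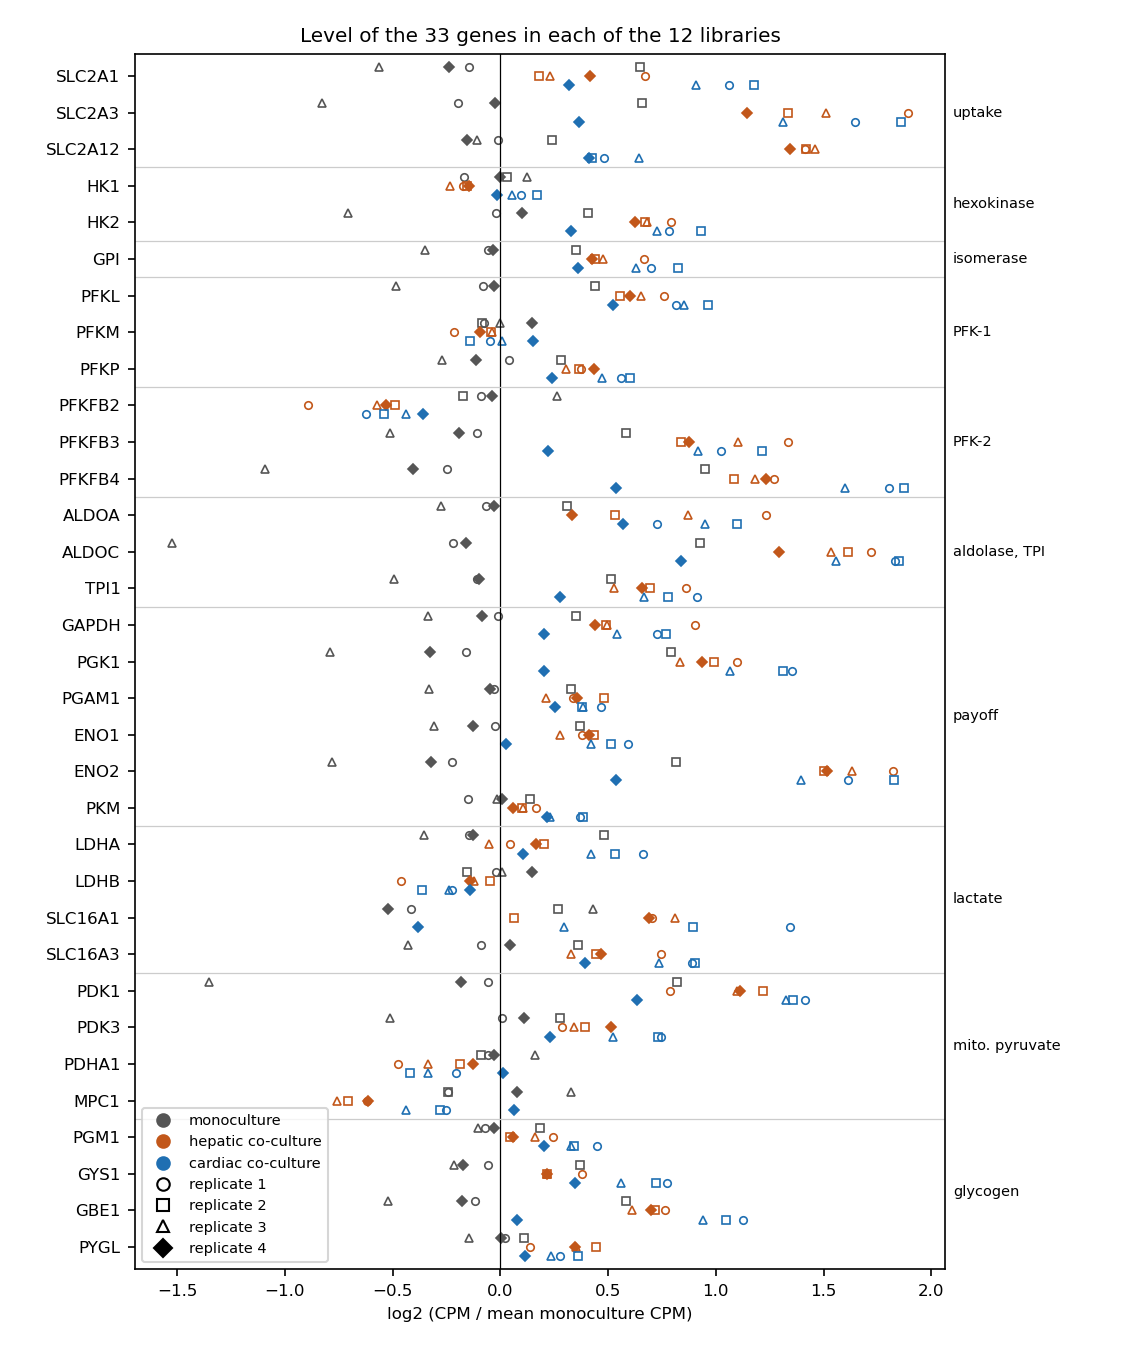
Level of each of the 33 genes in each of the 12 libraries, as log2 of its CPM over the mean monoculture CPM; colour gives the group, marker shape the replicate, and rows follow the pathway from uptake to glycogen. Most hepatic and cardiac points lie to the right of the monoculture mean, with monoculture replicate 2 highest of its group for 26 genes and cardiac replicate 4 lowest of its group for 28.

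Glucose uptake was represented by 3 transporters. SLC2A12 encodes GLUT12, a facilitative glucose transporter, and had the smallest adjusted p of the set (ENSG00000146411, chr6:133988697-134052636, minus strand, GRCh38). Its level was 10.5, 12.5, 9.76 and 9.47 CPM in monoculture replicates 1 to 4, 28.1, 28.2, 29.0 and 26.7 CPM in the hepatic co-culture, and 14.7, 14.2, 16.5 and 14.0 CPM in the cardiac co-culture. All hepatic libraries lay above all cardiac libraries, and these above all monoculture libraries. Its log2 fold change was 1.41 ± 0.11 (SE) in the hepatic co-culture (adjusted p = 7.75e-08) and 0.49 ± 0.11 in the cardiac co-culture (adjusted p = 0.012), and both calls held with each of the 12 libraries left out in turn. Of the exon bases of SLC2A12, 38.9% lie opposite TBPL1, and the strand setting of the counting is not given in the sources used here. TBPL1 itself differed by 0.07 (adjusted p = 0.718) and -0.19 (adjusted p = 0.352) in these comparisons.

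SLC2A3 encodes GLUT3, a transporter of high glucose affinity. It measured 56.0, 101, 36.1 and 63.0 CPM in monoculture, 238, 162, 183 and 142 CPM in the hepatic co-culture and 200.4, 233, 159 and 82.4 CPM in the cardiac co-culture. The hepatic libraries lay above all monoculture libraries, while cardiac replicate 4 lay below monoculture replicate 2. It was 2.82-fold higher in the hepatic co-culture (log2 fold change 1.50 ± 0.38, adjusted p = 0.0172), and its cardiac value of 1.39 ± 0.38 missed the threshold (adjusted p = 0.0541). Without cardiac replicate 4 that value was 1.62 (adjusted p = 0.0111). Reads of the close paralog SLC2A14 may be shared with SLC2A3, since the treatment of reads with several matches is not given in the sources used here. SLC2A14 reached at most 3.59 CPM in any library. SLC2A1, which encodes the widespread transporter GLUT1, had the highest level per length of the 3, 58.0 CPM per kb of exon in monoculture. It averaged 274 ± 107 CPM in monoculture (SD, n = 4), 358 ± 57.1 in hepatic and 511 ± 121 in cardiac co-culture and passed in neither (adjusted p = 0.329 and 0.0717). In monoculture its libraries ran from 186 to 429.5 CPM, the highest being replicate 2, and without that library it was higher in both, by 0.68 (adjusted p = 0.0279) and 1.20 (adjusted p = 0.0087).

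**Figure D2:**
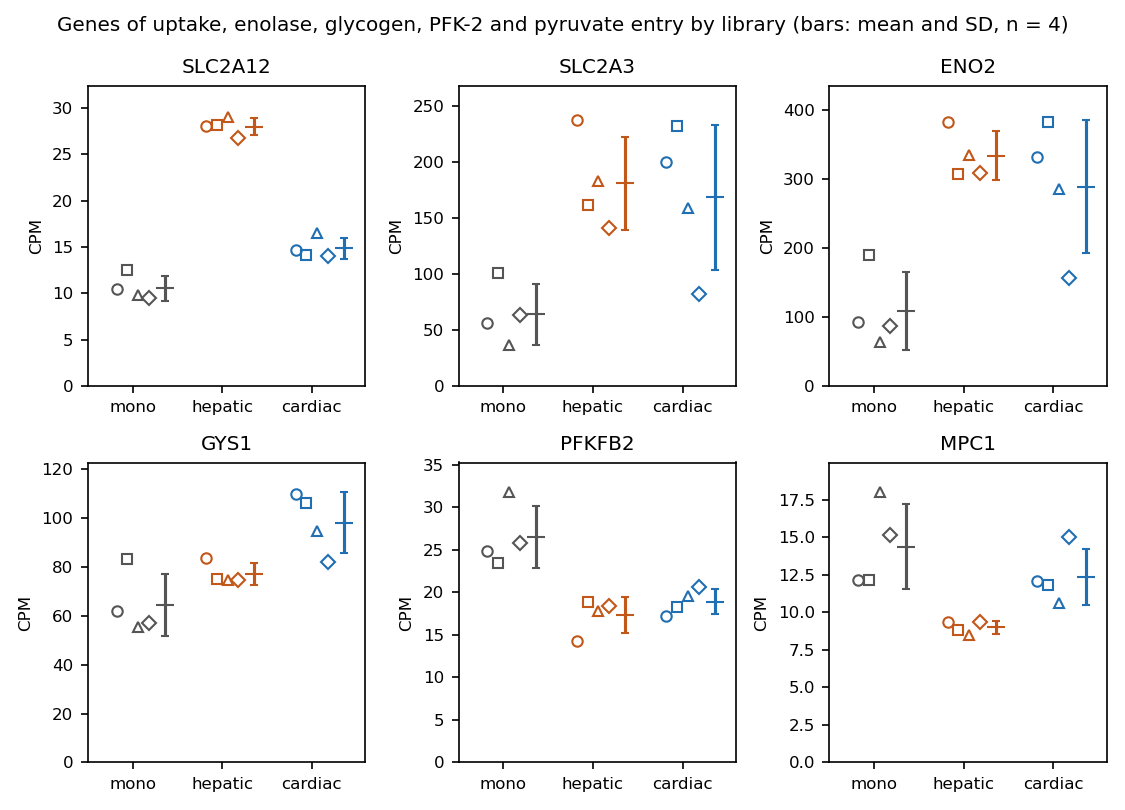
CPM of SLC2A12, SLC2A3, ENO2, GYS1, PFKFB2 and MPC1 in the 12 libraries; marker shape gives the replicate (circle 1, square 2, triangle 3, diamond 4), and the bars give the mean and SD of 4 libraries. SLC2A12 separates all 3 groups, SLC2A3 and ENO2 have a low cardiac replicate 4, and PFKFB2 and MPC1 are highest in monoculture.

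The hexokinases, which phosphorylate glucose, differed between the isozymes. HK2, the inducible form bound to mitochondria, averaged 133 ± 39.3 CPM in monoculture, 215 ± 10.7 in hepatic and 217 ± 36.4 in cardiac co-culture (SD, n = 4). It was higher in the hepatic co-culture by 0.70 ± 0.20 (adjusted p = 0.0283), a call lost without monoculture replicates 1 or 4 or hepatic replicates 1, 2 or 3 (adjusted p up to 0.0742). Its cardiac value of 0.71 ± 0.20 missed the threshold (adjusted p = 0.0584) and passed without cardiac replicate 4 (0.82, adjusted p = 0.021) or monoculture replicate 2 (0.87, adjusted p = 0.0199). HK1, the widely expressed housekeeping form, was at 244, 280.4, 299 and 273 CPM in monoculture, 243, 247, 233 and 248 CPM in hepatic and 293, 308, 284 and 271 CPM in cardiac co-culture. All cardiac libraries lay above all hepatic ones, and the monoculture libraries overlapped both. HK1 passed against monoculture in neither co-culture (-0.18, adjusted p = 0.0606, and 0.08, adjusted p = 0.518). GPI, the isomerase that follows, rose in both co-cultures. Its level was 390.3, 517, 318 and 396 CPM in monoculture, 644, 550.1, 564 and 544 CPM in hepatic and 658, 717, 627 and 521 CPM in cardiac co-culture. No co-culture library of GPI fell within the monoculture range. The increases were 1.42-fold (0.51 ± 0.13, adjusted p = 0.00835) and 1.56-fold (0.64 ± 0.13, adjusted p = 0.012), and both held with each library left out.

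Phosphofructokinase 1, which commits glucose to glycolysis, is built from 3 kinds of subunit, and 2 of the 3 rose. PFKL, the liver-type subunit, measured 185, 265, 139.6 and 191 CPM in monoculture, 330.4, 287, 307 and 296 CPM in hepatic and 343, 381, 352 and 281 CPM in cardiac co-culture. The groups did not overlap with monoculture, and the changes were 0.65 ± 0.16 (adjusted p = 0.0103) and 0.80 ± 0.16 (adjusted p = 0.0157). The cardiac call of PFKL was lost without cardiac replicate 2 (adjusted p = 0.055). PFKP, the platelet-type subunit, measured 276, 327, 223 and 249 CPM in monoculture, 348, 347, 332 and 364 CPM in hepatic and 396, 408, 373 and 318 CPM in cardiac co-culture. Only cardiac replicate 4 of the 8 co-culture libraries fell within the monoculture range. PFKP rose by 0.37 ± 0.10 (adjusted p = 0.00984) and 0.47 ± 0.10 (adjusted p = 0.012), with each library left out as well. PFKM, the muscle-type subunit, stayed between 98.4 and 127 CPM in all 12 libraries and differed by -0.10 ± 0.07 in the hepatic (adjusted p = 0.359) and by less than 0.01 in the cardiac co-culture (adjusted p = 0.981).

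The PFKFB enzymes set the level of fructose 2,6-bisphosphate, the strongest activator of phosphofructokinase 1, and their genes moved in opposite directions. PFKFB2 fell in both co-cultures. Its level was 24.9, 23.5, 31.8 and 25.8 CPM in monoculture, 14.3, 18.9, 17.8 and 18.4 CPM in hepatic and 17.2, 18.2, 19.6 and 20.7 CPM in cardiac co-culture. All 8 co-culture libraries lay below all monoculture libraries. It fell by 0.61 on the log2 scale in the hepatic co-culture (SE 0.11, adjusted p = 0.000731) and by 0.48 in the cardiac co-culture (SE 0.11, adjusted p = 0.0171). The cardiac call was lost without monoculture replicate 3 or cardiac replicates 1, 2 or 3 (adjusted p up to 0.0767). PFKFB3, the isozyme with the highest kinase over phosphatase activity, stood at 49.0, 79.1, 37.1 and 46.2 CPM in monoculture, 133, 94.4, 114 and 96.9 CPM in hepatic and 108, 123, 99.8 and 61.7 CPM in cardiac co-culture. The hepatic libraries all lay above monoculture, and only cardiac replicate 4 lay within its range. PFKFB3 rose 2.07-fold in the hepatic co-culture (1.05 ± 0.27, adjusted p = 0.0165), while the cardiac value of 0.89 ± 0.27 missed the threshold (adjusted p = 0.0705) and passed without cardiac replicate 4 (1.06, adjusted p = 0.0152). PFKFB4 averaged 50.3 ± 32.3 CPM in monoculture, 115 ± 6.36 in hepatic and 146 ± 50.7 in cardiac co-culture. Its values of 1.20 ± 0.43 (adjusted p = 0.0656) and 1.54 ± 0.43 (adjusted p = 0.0584) missed the threshold, and both passed without monoculture replicate 2 (1.73, adjusted p = 0.00545, and 2.08, adjusted p = 0.0103).

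**Figure D3:**
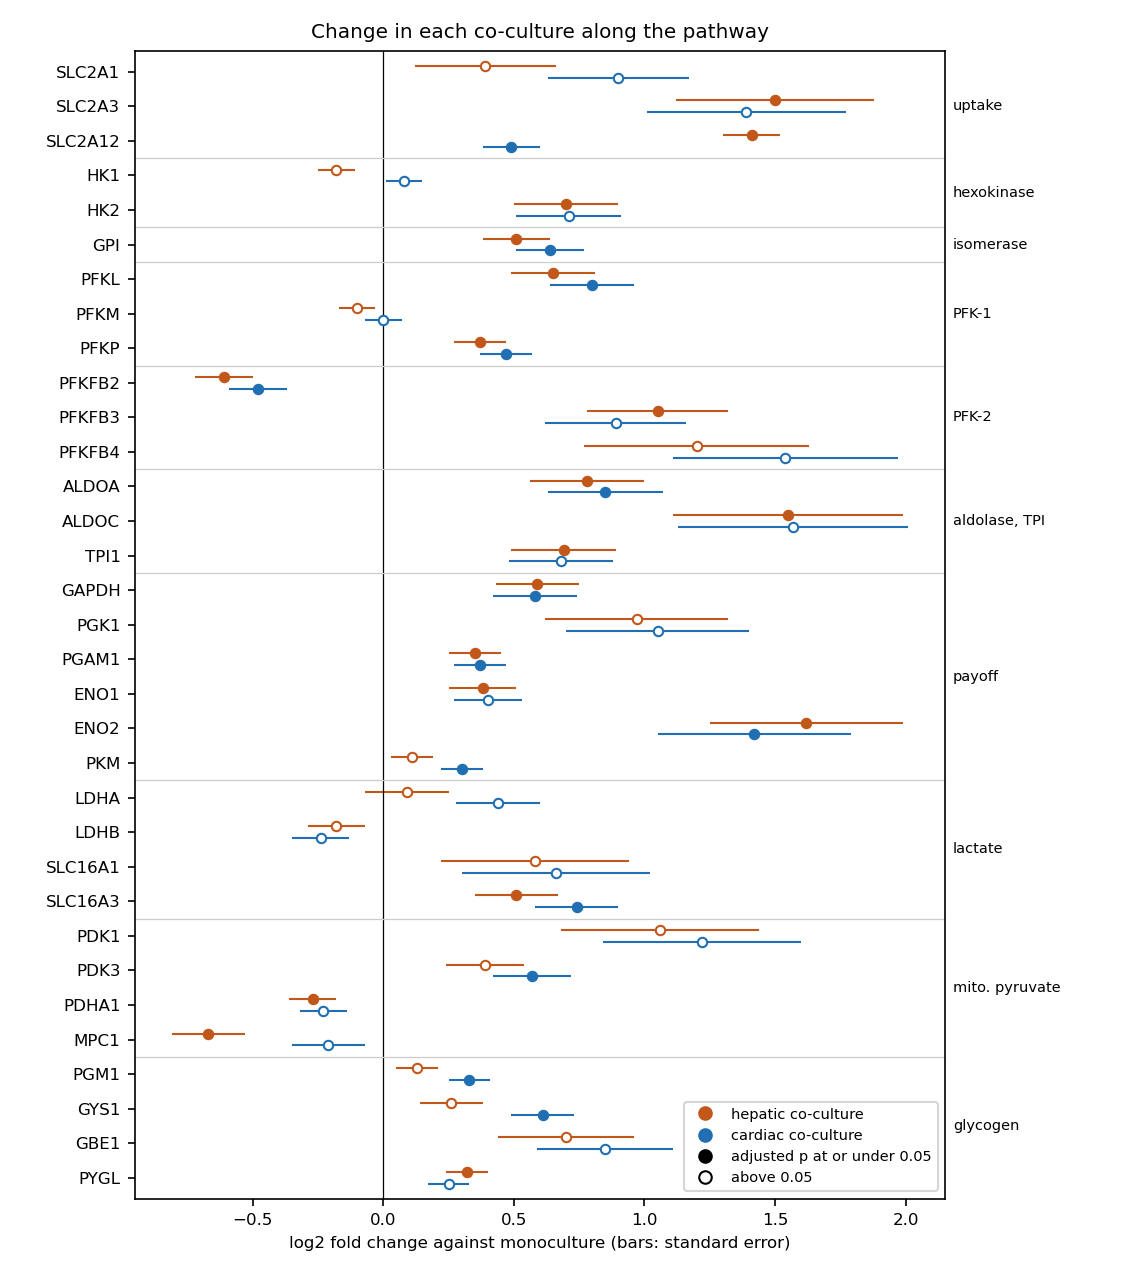
Log2 fold change with its SE for each of the 33 genes in the hepatic and the cardiac co-culture against monoculture, ordered along the pathway; filled points passed an adjusted p of 0.05. The 16 and 13 genes that passed as higher spread over uptake, both phases of glycolysis, lactate export, mitochondrial pyruvate (PDK3) and glycogen, and the 3 that passed as lower are PFKFB2, PDHA1 and MPC1.

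Aldolase splits fructose 1,6-bisphosphate into 2 trioses that TPI1, triose phosphate isomerase, interconverts. ALDOC, the brain-type aldolase, had the widest monoculture range of the set, from 9.90 CPM in replicate 3 to 54.1 CPM in replicate 2. It averaged 28.5 ± 18.5 CPM in monoculture, 83.3 ± 10.1 in hepatic and 84.7 ± 24.1 in cardiac co-culture (SD, n = 4). Its increase in the hepatic co-culture was 1.55 ± 0.44 (adjusted p = 0.0276), lost without monoculture replicates 1 or 4 or hepatic replicates 1, 2 or 3 (adjusted p up to 0.0724). The cardiac value of 1.57 ± 0.44 was as large and missed the threshold (adjusted p = 0.0586). TPI1 averaged 628 ± 191, 1013 ± 98.2 and 1004 ± 178 CPM in the 3 groups. It rose by 0.69 ± 0.20 in the hepatic co-culture (adjusted p = 0.0243), lost without monoculture replicates 1 or 4 or hepatic replicate 1 (adjusted p up to 0.0769), and its cardiac value was 0.68 ± 0.20 (adjusted p = 0.0591).

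ALDOA, the muscle-type aldolase, was listed at only 2.01 to 5.72 CPM. An overlapping annotated gene shares 42.3% of its exon bases on the same strand, and reads assigned to more than 1 gene may have been left out, so its level is uncertain. The listed values were 2.32, 3.01, 2.01 and 2.39 CPM in monoculture, 5.72, 3.52, 4.45 and 3.06 CPM in hepatic and 4.03, 5.21, 4.70 and 3.61 CPM in cardiac co-culture. Neither co-culture overlapped with monoculture. ALDOA passed as higher in both, by 0.78 ± 0.22 (adjusted p = 0.0119; 0.0521 without hepatic replicate 1) and 0.85 ± 0.22 (adjusted p = 0.0253). The cardiac call was lost without monoculture replicates 1, 3 or 4 or cardiac replicates 1, 2 or 3 (adjusted p up to 0.0954).

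The payoff phase, which yields ATP, holds GAPDH and ENO1, the members with the highest levels per length. Per kb of exon, GAPDH stood at 586 CPM in monoculture, ENO1 at 557, PKM at 365, PGAM1 at 230.1 and PGK1 at 135 in this phase. ENO2, the neuron-type enolase, changed most among the 6 genes of this phase. It measured 92.4, 190.3, 62.9 and 86.5 CPM in monoculture, 383, 306, 335 and 309 CPM in hepatic and 331, 383, 284 and 157 CPM in cardiac co-culture. All hepatic libraries lay above monoculture, and cardiac replicate 4 lay below monoculture replicate 2. ENO2 rose 3.08-fold in the hepatic co-culture (1.62 ± 0.37, adjusted p = 0.00996), the largest log2 fold change of the set there. In the cardiac co-culture it rose by 1.42 ± 0.37 (adjusted p = 0.0462), a call lost without any single library except monoculture replicate 2 and cardiac replicate 4 (adjusted p up to 0.138). ENO1, the general enolase, averaged 2940 ± 613, 3818 ± 184 and 3892 ± 631 CPM. It passed in the hepatic co-culture at 0.38 ± 0.13 (adjusted p = 0.0435) and not in the cardiac at 0.40 ± 0.13 (adjusted p = 0.0673). The hepatic call of ENO1 was lost without monoculture replicates 1, 3 or 4, any hepatic library, or cardiac replicates 2 or 3 (adjusted p up to 0.133).

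GAPDH, the dehydrogenase often used as a reference gene, was not level across the conditions. Its libraries read 1733, 2227, 1385 and 1647 CPM in monoculture, 3272, 2454, 2467 and 2368 CPM in hepatic and 2890, 2978, 2548 and 2012 CPM in cardiac co-culture. The hepatic libraries lay above all of monoculture, and cardiac replicate 4 lay below monoculture replicate 2. GAPDH rose 1.51-fold in the hepatic (0.59 ± 0.16, adjusted p = 0.0128) and 1.49-fold in the cardiac co-culture (0.58 ± 0.16, adjusted p = 0.0412). The hepatic call held with each library left out; the cardiac call was lost without monoculture replicates 1, 3 or 4, hepatic replicates 2 or 3, or cardiac replicates 1, 2 or 3 (adjusted p up to 0.127).

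PGAM1, phosphoglycerate mutase, was at 580.1, 742, 471 and 572 CPM in monoculture, 747, 826, 684 and 755 CPM in hepatic and 818, 769, 771 and 705 CPM in cardiac co-culture. Monoculture replicate 2 overlapped with both co-cultures. PGAM1 rose by 0.35 ± 0.10 (adjusted p = 0.0183) and 0.37 ± 0.10 (adjusted p = 0.036). The hepatic call was lost without monoculture replicates 3 or 4 or hepatic replicate 2 (adjusted p up to 0.0707), and the cardiac call without monoculture replicates 1, 3 or 4 or cardiac replicates 1, 2 or 3 (adjusted p up to 0.114). PGK1, phosphoglycerate kinase, averaged 746 ± 376 CPM in monoculture, 1460 ± 112 in hepatic and 1546 ± 482 in cardiac co-culture. Its values of 0.97 ± 0.35 (adjusted p = 0.0644) and 1.05 ± 0.35 (adjusted p = 0.0932) missed the threshold, while monoculture replicate 2, at 1291 CPM, was 2.99 times replicate 3. Without monoculture replicate 2, PGK1 passed in both (1.36, adjusted p = 0.00526, and 1.45, adjusted p = 0.0145). PKM, pyruvate kinase of muscle and tumours, averaged 3124 ± 254, 3368 ± 106 and 3856 ± 238 CPM. It rose in the cardiac co-culture by 0.30 ± 0.08 (adjusted p = 0.0231), lost without monoculture replicates 1, 3 or 4 or cardiac replicates 1 or 2 (adjusted p up to 0.0866), and its hepatic value was 0.11 ± 0.08 (adjusted p = 0.311).

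Of the 4 lactate genes, the exporter SLC16A3 was the one that passed. It encodes MCT4, a monocarboxylate transporter of glycolytic cells. Its libraries read 264, 360.2, 208 and 289 CPM in monoculture, 470.2, 381, 352 and 387 CPM in hepatic and 520.1, 525, 467 and 368 CPM in cardiac co-culture. The cardiac libraries all lay above monoculture, and hepatic replicate 3 lay just below monoculture replicate 2. SLC16A3 rose by 0.51 ± 0.16 (adjusted p = 0.0361) and 0.74 ± 0.16 (adjusted p = 0.021). The hepatic call was lost without monoculture replicates 1, 3 or 4 or hepatic replicates 1, 2 or 4 (adjusted p up to 0.12), and the cardiac call without monoculture replicates 1 or 4 or cardiac replicates 1, 2 or 3 (adjusted p up to 0.0717). SLC16A1, which encodes MCT1, was low, at 0.694 to 2.53 CPM and passed in neither (adjusted p = 0.246 and 0.26). LDHA, the lactate dehydrogenase subunit that favours lactate formation, averaged 2070 ± 561, 2208 ± 176 and 2815 ± 445 CPM. It passed in neither, at 0.09 ± 0.16 (adjusted p = 0.712) and 0.44 ± 0.16 (adjusted p = 0.108), but in the cardiac co-culture it passed without monoculture replicate 2 (0.65, adjusted p = 0.00399) or cardiac replicate 4 (0.54, adjusted p = 0.0359). In the hepatic co-culture LDHA missed the threshold also without monoculture replicate 2 (0.29, adjusted p = 0.0661). LDHB, the other subunit, was listed between 12.6 and 19.2 CPM, a level made uncertain by an annotated gene that shares 33.4% of its exon bases on the same strand, and passed in neither (adjusted p = 0.235 and 0.178).

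MPC1 and PDHA1, which lead pyruvate into mitochondria, fell in the hepatic co-culture and did not pass in the cardiac. MPC1 is a subunit of the mitochondrial pyruvate carrier. It measured 12.1, 12.1, 18.0 and 15.2 CPM in monoculture, 9.35, 8.81, 8.49 and 9.37 CPM in hepatic and 12.1, 11.8, 10.6 and 15.0 CPM in cardiac co-culture. All hepatic libraries lay below all others, while the cardiac and monoculture libraries overlapped. MPC1 fell by 0.67 in the hepatic co-culture (SE 0.14, adjusted p = 0.00188), with each library left out as well, and its cardiac value was -0.21 ± 0.14 (adjusted p = 0.356). The difference between the co-cultures was 0.46 ± 0.14 and missed the threshold (adjusted p = 0.0635). PDHA1, the catalytic subunit of pyruvate dehydrogenase, measured 107, 104, 124 and 108 CPM in monoculture, 79.6, 97.4, 87.7 and 102 CPM in hepatic and 96.1, 82.7, 87.6 and 112 CPM in cardiac co-culture. Its hepatic libraries lay below monoculture and cardiac replicate 4 lay within it. PDHA1 fell by 0.27 in the hepatic co-culture (SE 0.09, adjusted p = 0.0356), lost without monoculture replicates 3 or 4 or hepatic replicates 1 or 3 (adjusted p up to 0.125), and its cardiac value was -0.23 ± 0.09 (adjusted p = 0.132). About 21.3% of the exon bases of PDHA1 lie opposite MAP3K15, and whether the counting used strand is not given in the sources used here; MAP3K15 rose by 0.76 ± 0.20 (adjusted p = 0.00729) and 0.71 ± 0.20 (adjusted p = 0.0326). PDK1 and PDK3 are 2 of the kinases that switch pyruvate dehydrogenase off, and of their 4 values against monoculture only that of PDK3 in the cardiac co-culture passed. PDK3 rose in the cardiac co-culture by 0.57 ± 0.15 (adjusted p = 0.0283), lost without monoculture replicates 1, 3 or 4 or cardiac replicates 1, 2 or 3 (adjusted p up to 0.102), and its hepatic value was 0.39 ± 0.15 (adjusted p = 0.0626). PDK1 averaged 20.6 ± 11.7, 43.0 ± 5.27 and 47.8 ± 10.7 CPM. Its values of 1.06 ± 0.38 (adjusted p = 0.0629) and 1.22 ± 0.38 (adjusted p = 0.0789) missed the threshold.

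Glycogen genes passed in different co-cultures. PGM1, which interconverts glucose phosphates at the branch to glycogen, read 143, 171, 140.4 and 148 CPM in monoculture, 178, 155, 168 and 157 CPM in hepatic and 205, 191, 189 and 173 CPM in cardiac co-culture. The cardiac libraries lay above monoculture and the hepatic ones overlapped with it. PGM1 rose by 0.33 ± 0.08 in the cardiac co-culture (adjusted p = 0.0154), lost without monoculture replicate 3 or cardiac replicates 1 or 2 (adjusted p up to 0.0573), against 0.13 ± 0.08 in the hepatic (adjusted p = 0.216). GYS1, the glycogen synthase outside liver, read 61.9, 83.1, 55.4 and 57.1 CPM in monoculture, 83.8, 74.9, 74.8 and 74.8 CPM in hepatic and 109.9, 106, 94.8 and 82.0 CPM in cardiac co-culture. Cardiac replicate 4 lay just below monoculture replicate 2, and the other cardiac libraries lay above all monoculture and hepatic ones. GYS1 rose 1.52-fold in the cardiac co-culture (0.61 ± 0.12, adjusted p = 0.01), with each library left out as well. Its hepatic value was 0.26 ± 0.12 (adjusted p = 0.112), and the 2 co-cultures differed by 0.35 ± 0.12 (adjusted p = 0.0935).

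PYGL, the liver-type glycogen phosphorylase, read 232, 247, 206 and 229 CPM in monoculture, 251, 310.3, 291 and 290.5 CPM in hepatic and 276, 293, 269 and 247 CPM in cardiac co-culture. Every co-culture library lay above every monoculture library. It rose by 0.32 ± 0.08 in the hepatic co-culture (adjusted p = 0.00421), with each library left out as well, and its cardiac value of 0.25 ± 0.08 missed the threshold narrowly (adjusted p = 0.0502). GBE1, the branching enzyme, averaged 129.6 ± 44.8, 210.5 ± 9.27 and 234 ± 66.3 CPM. Its values of 0.70 ± 0.26 (adjusted p = 0.0773) and 0.85 ± 0.26 (adjusted p = 0.0777) missed the threshold and passed without monoculture replicate 2 (0.95, adjusted p = 0.0112, and 1.11, adjusted p = 0.0186).

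Between the co-cultures, 2 of the 33 genes passed, a share near the 6.18% of all tested genes. SLC2A12 was lower in the cardiac than in the hepatic co-culture by 0.91 ± 0.10 on the log2 scale (-0.91, adjusted p = 1.45e-05), with each of the 12 libraries left out as well; TBPL1, which overlaps it, differed by -0.26 (adjusted p = 0.245). HK1 was 1.19-fold higher in the cardiac co-culture (0.25 ± 0.07, adjusted p = 0.0321). That call of HK1 was lost without hepatic replicates 2, 3 or 4 or cardiac replicates 1, 2 or 3 (adjusted p up to 0.101). It was also lost with only the 2 groups compared in the fit (adjusted p = 0.0503), where GYS1 passed instead (0.35 higher in the cardiac co-culture, adjusted p = 0.0396, against 0.0935 over all groups). The other 31 genes differed by at most 0.51 and gave adjusted p from 0.0635 to 0.986, which does not show that they were alike. The libraries of the co-cultures did not overlap for 4 of the 33 genes, a share near the 11.9% of all tested genes. Of these, HK1, PKM and MPC1 were higher and SLC2A12 lower in the cardiac co-culture. By either count the set differed between the co-cultures about as often as all tested genes.

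The make-up of several enzyme families was described by the share of each member in the family's CPM per kb of exon, with no test. A family here holds only its genes in the set. ENO3, at a mean of 3.19, 4.03 and 4.26 CPM per kb in monoculture, hepatic and cardiac co-culture, was therefore left out of the enolases. SLC2A6, SLC2A10 and SLC2A14, named after their values were seen, were among the transporters left out. SLC2A6 stood at 7.43, 4.03 and 5.67 CPM per kb. By the edgeR test it was lower in the hepatic co-culture (-0.89 ± 0.18, adjusted p = 0.00183) and did not pass in the cardiac (adjusted p = 0.171). SLC2A10 and SLC2A14, at most 4.09 and 3.59 CPM, were higher in the hepatic (adjusted p = 0.022 and 0.00796). GLUT3 (SLC2A3) took 14.5 ± 1.75% of the summed level of the 3 transporters in monoculture, 26.3 ± 3.19% in hepatic and 19.1 ± 3.03% in cardiac co-culture (SD, n = 4), and GLUT1 (SLC2A1) the most in each. HK2 took 33.1 ± 7.62% of the hexokinase level in monoculture, 47.9 ± 1.53% in hepatic and 43.6 ± 3.16% in cardiac co-culture. PFKL took 23.2 ± 2.63%, 28.3 ± 1.62% and 29.0 ± 1.28%, while PFKP, the largest subunit share, stood at 59.7%, 59.6% and 59.0%. PFKFB2 went from 15.2 ± 6.78% of the PFKFB enzymes in monoculture to 4.48 ± 0.889% and 4.95 ± 2.35%. ENO2 took 4.14 ± 1.15%, 9.73 ± 1.14% and 8.19 ± 1.66% of the summed level of ENO1 and ENO2, and MCT4 (SLC16A3) 99.4% of the 2 lactate transporters in every condition. The share of PDK1 over PDK1 and PDK3 was 37.2 ± 9.10%, 50.9 ± 2.56% and 50.2 ± 2.87%. The shares of ENO2 and PFKL in the hepatic and cardiac libraries all lay above those in monoculture, whereas the HK2 share of cardiac replicate 4, 39.0%, lay below that of monoculture replicate 2, 39.5%.

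**Figure D4:**
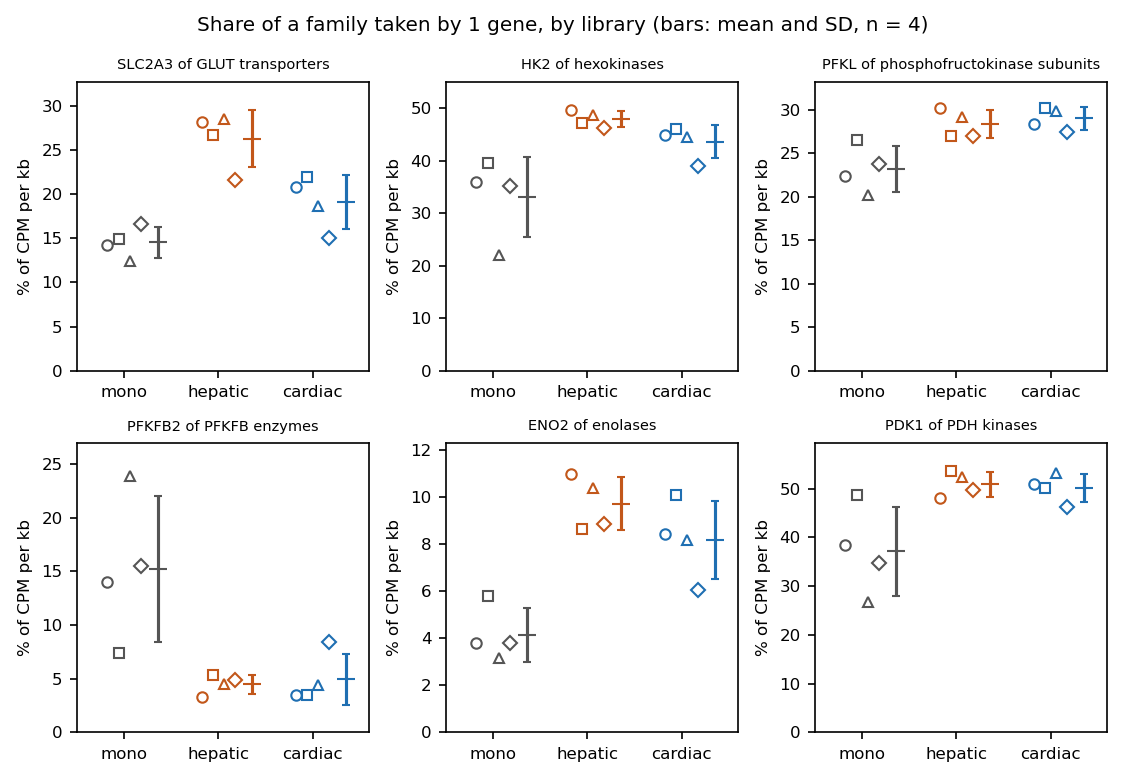
Share of 1 member in its family's summed CPM per kb of exon, in percent, for SLC2A3, HK2, PFKL, PFKFB2, ENO2 and PDK1 in the 12 libraries. A family holds only its genes in the set. Marker shape gives the replicate and bars give the mean and SD of 4 libraries. The shares of ENO2 in the co-cultures, at 9.73% and 8.19% on average, lie above 4.14% in monoculture, and that of PFKFB2 is lower on average, at 4.48% and 4.95% against 15.2%.

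Together the 33 genes took 1.52 ± 0.292% of all counts in monoculture, 1.92 ± 0.0696% in hepatic and 2.11 ± 0.280% in cardiac co-culture (SD, n = 4). Their spread between libraries of 1 condition was wide in monoculture, close to that of other genes in hepatic co-culture and intermediate in cardiac co-culture. Among genes with a mean of at least 10 CPM, the highest monoculture library exceeded the lowest by 1.63-fold for the median gene of the set and 1.16-fold for the median of all genes. In the hepatic co-culture these ratios were 1.20 and 1.22, and in the cardiac 1.43 and 1.21. At least a 2-fold range was found in monoculture for 11 of 31 genes of the set (35.5%) and 0.971% of all genes, in the hepatic co-culture for 0 of 30 and 0.832%, and in the cardiac for 6 of 31 (19.4%) and 2.74%. The widest ranges were 5.46-fold for ALDOC in monoculture, 1.68-fold for SLC2A3 in hepatic and 2.82-fold for SLC2A3 in cardiac co-culture.

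Other genes of the same metabolism were called at shares near those of all tested genes in the hepatic co-culture. Of 76 other genes of glucose, pyruvate, glycogen and pentose phosphate metabolism, 61 were tested. There were 8 higher and 9 lower in the hepatic co-culture, where 14.4% and 13.6% of all tested genes were called, and 4 higher and 6 lower in the cardiac, against 4.93% and 3.33%; 44 and 51 passed in neither direction. Their median log2 fold changes were 0.00 and -0.00. PC, pyruvate carboxylase, which feeds pyruvate into the citric acid cycle, read 158, 178, 168 and 156 CPM in monoculture, 272, 223, 245 and 233 CPM in hepatic and 221, 235, 247 and 192 CPM in cardiac co-culture. Every co-culture library of PC lay above monoculture. It rose by 0.56 ± 0.08 (adjusted p = 8.25e-05) and 0.44 ± 0.08 (adjusted p = 0.00668). PCK2, the mitochondrial carboxykinase that makes phosphoenolpyruvate, rose by 0.67 ± 0.13 (adjusted p = 0.000781) and 0.60 ± 0.13 (adjusted p = 0.0115). PGD, an enzyme of the pentose phosphate branch, fell by 0.45 in the hepatic co-culture (SE 0.08, adjusted p = 0.000609), with a cardiac value of -0.19 ± 0.08 (adjusted p = 0.139). TIGAR, a phosphatase that lowers fructose 2,6-bisphosphate, was at most 1.74 CPM in any library and fell by 1.89 in the hepatic co-culture (SE 0.37, adjusted p = 0.00122). Named after their values were seen, DLD and DLAT, which encode the E3 and E2 enzymes of the pyruvate dehydrogenase complex, fell in both co-cultures. DLD fell by 0.41 (SE 0.08, adjusted p = 0.00133) and 0.40 (SE 0.08, adjusted p = 0.0106), and DLAT by 0.27 (SE 0.06, adjusted p = 0.00442) and 0.24 (SE 0.06, adjusted p = 0.0291). The cardiac call of DLAT was lost without monoculture replicates 1, 3 or 4 or cardiac replicates 1, 2 or 3 (adjusted p up to 0.0951). PDHB, the partner subunit of PDHA1, gave -0.12 (adjusted p = 0.171) and -0.16 (adjusted p = 0.108), and PDHX, a binding part of the complex, -0.24 (adjusted p = 0.0548) and -0.14 (adjusted p = 0.361), so neither passed. PDK4, a further pyruvate dehydrogenase kinase, fell by 0.92 in the hepatic co-culture (SE 0.17, adjusted p = 0.00172) and gave -0.37 in the cardiac (adjusted p = 0.182).

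Of 14 listed regulators of glucose use and the HIF response, 3 were higher and 2 lower in the hepatic co-culture (14.4% and 13.6% of all tested genes). In the cardiac, 2 were higher and 1 lower (4.93% and 3.33%), and 9 and 11 did not pass. TXNIP, an arrestin that restrains glucose uptake and is induced by glucose, had 933, 1167, 624 and 847 CPM in monoculture, 3983, 3691, 4225 and 3230 CPM in hepatic and 2662, 2581, 2095 and 1173 CPM in cardiac co-culture. The hepatic libraries lay above all others, and cardiac replicate 4 lay just above monoculture replicate 2. TXNIP rose by 2.08 ± 0.27 (adjusted p = 0.000428) and 1.25 ± 0.26 (adjusted p = 0.0231), the latter lost without monoculture replicates 1, 3 or 4 or cardiac replicates 1, 2 or 3 (adjusted p up to 0.0785). Its relative ARRDC4 rose by 1.86 ± 0.25 (adjusted p = 0.000303) and 1.25 ± 0.24 (adjusted p = 0.0157; 0.0525 without cardiac replicate 2). HIF1A, the oxygen-regulated HIF subunit, is controlled mainly at the protein level. Its mRNA read 592, 486, 642 and 591 CPM in monoculture, 534, 556, 598 and 555 CPM in hepatic and 392, 382, 426 and 484 CPM in cardiac co-culture. All cardiac libraries lay below all others, and HIF1A fell by 0.46 against monoculture (SE 0.09, adjusted p = 0.00742) and by 0.41 against the hepatic co-culture (SE 0.09, adjusted p = 0.00705). EPAS1, which encodes HIF-2α, fell in the hepatic co-culture by 0.60 (SE 0.11, adjusted p = 0.000667) and gave -0.16 ± 0.11 in the cardiac (adjusted p = 0.367). The co-cultures differed in EPAS1 by 0.44 ± 0.11 (adjusted p = 0.0198), lost without hepatic replicates 2 or 4 or cardiac replicate 4 (adjusted p up to 0.0587).

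**Figure D5:**
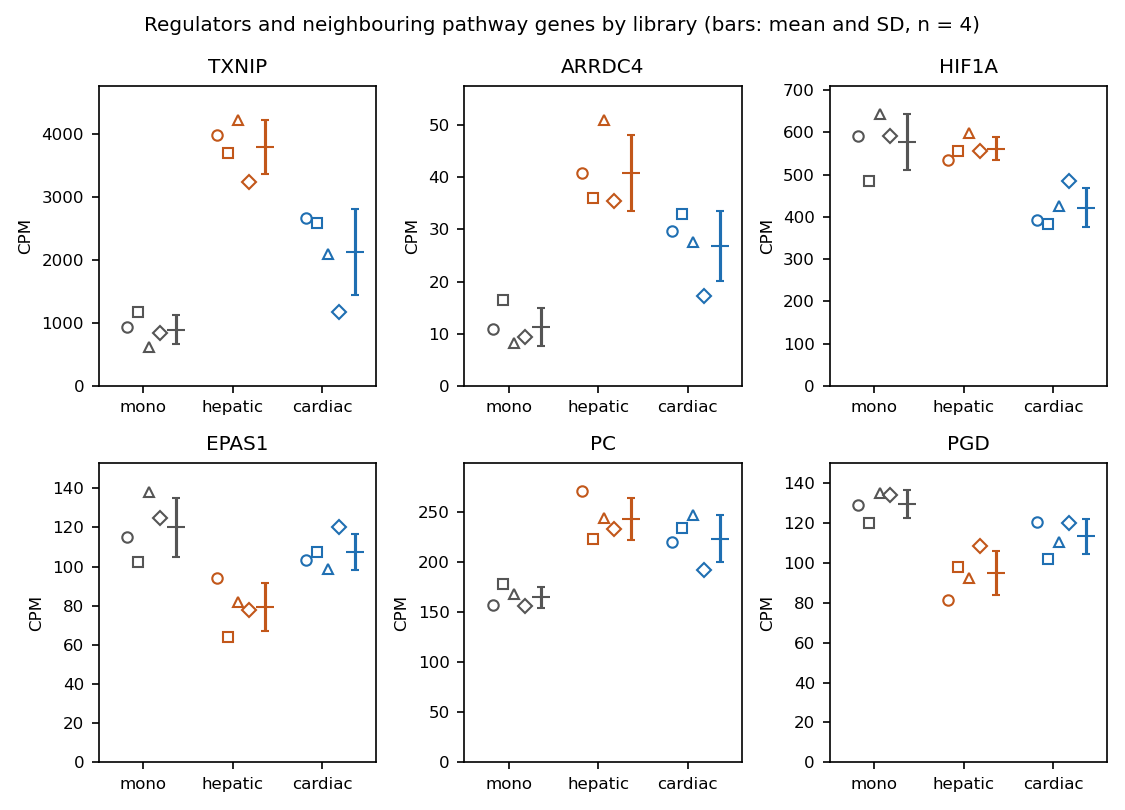
CPM of TXNIP, ARRDC4, HIF1A, EPAS1, PC and PGD in the 12 libraries; marker shape gives the replicate and bars give the mean and SD of 4 libraries. TXNIP and ARRDC4 are highest in the hepatic co-culture, HIF1A lowest in the cardiac and EPAS1 and PGD lowest in the hepatic co-culture.

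A list of 15 HIF targets outside glycolysis was read beside the set. EGLN3 is in this list and among the regulators above, so it was counted in both. All 15 had positive values in both co-cultures, 5 passed as higher in each and 0 as lower, where 14.4% and 4.93% of all tested genes were higher, and 10 of the 15 did not pass in each. They had medians of 0.78 and 1.03. MXI1, a MYC antagonist, rose by 0.78 ± 0.18 in the hepatic co-culture (adjusted p = 0.00748) and by 0.68 ± 0.18 in the cardiac (adjusted p = 0.0403). The latter was lost without any single library except monoculture replicate 2 and cardiac replicate 4 (adjusted p up to 0.12). CA12, a carbonic anhydrase, rose in the cardiac co-culture by 0.81 ± 0.17 (adjusted p = 0.0163), lost without monoculture replicate 1 or cardiac replicate 2 (adjusted p up to 0.058). None of the 15 passed between the co-cultures.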

How the data were processed

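Gene expression was measured by RNA sequencing of poly(A)-selected RNA in 12 libraries of cancer tissue, 4 per condition. The authors deposited raw, unnormalized read counts in a single table of 58735 Ensembl genes. HISAT2 2.2.1, featureCounts 2.0.6, DESeq2 1.42.0 and the build GRCh38 are named in the submitters' processing notes. For the annotation release, the strand setting and reads that match several places or genes, the sources used here give nothing, and the labels' protocols describe both a stranded and an unstranded library kit. All 58735 identifiers were found in GENCODE 29, which gave symbols, coordinates and exon lengths. Totals were 35.0 to 42.0 M counts (M for 1e6) in monoculture, 26.2 to 42.4 M in the hepatic and 27.0 to 37.4 M in the cardiac co-culture.

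The low-count filter of edgeR 4.0.16 (R 4.3.3) kept 17468 genes with 99.9% of the counts. They were tested in 1 fit over 12 libraries by the robust quasi-likelihood test after TMM scaling, two-sided, with Benjamini-Hochberg adjustment over all tested genes and a threshold of 0.05. The common biological coefficient of variation came to 14.9%. The SE is the log2 fold change over the root of the F statistic. Levels are TMM-scaled CPM, and CPM per kb of merged exons where genes are compared. The script was tested on simulated data. The genes and lists were chosen with earlier results of these data known. Values of all libraries are written out for the 16 genes of the set with the smallest adjusted p and for those lower in a co-culture or called between co-cultures; of each other list at most 4 genes are named, by smallest adjusted p, unless said otherwise. Alternatives were DESeq2 1.42.0, its size factors, upper-quartile scaling, library totals, no filter, 2 groups per fit, a replicate block and each library left out. Promoters are from RefSeq (GRCh38.p14).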

Additional observations from a re-analysis of the deposited data

Results flagged for a closer look

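In 3 of 99 groups of 4 libraries (33 genes in 3 conditions), 1 library lay far from the other 3; chance alone gives about 1 in 20. GAPDH stood at 3272 CPM in hepatic replicate 1, far above the next hepatic library at 2467. GYS1 was highest in the same library, at 83.81 CPM against 74.9 in the next. PDK1 was lowest in cardiac replicate 4, at 31.95 CPM against 51.7 in the next. The effect on SLC2A12 differed between the co-cultures by -0.91 on the log2 scale, cardiac against hepatic (edgeR, adjusted p = 1.45e-05). The effect on HK1 differed by 0.25 (adjusted p = 0.0321).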

How the results depend on the processing

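No gene of the set that was called changed direction under any alternative run. With each library left out in turn, 11 of the 19 hepatic calls and 4 of the 14 cardiac calls held in all 12 fits. The number of genes higher ranged from 10 to 23 in the hepatic and from 4 to 26 in the cardiac co-culture, the number lower in the cardiac from 0 to 2, and the number higher between the co-cultures from 0 to 2. All genes called ranged from 263 to 3378 for the cardiac co-culture (main 1443) and from 676 to 1269 between the co-cultures (main 1080). DESeq2 called 2406 genes and 26 higher members in the cardiac co-culture, and 3 higher between the co-cultures. Without the low-count filter, 2219 genes were called in the cardiac co-culture, 2 members were lower there and 3 were higher between the co-cultures; scaling by library totals gave 2 higher. The causes were not tested.

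Replicate numbers of the titles recur in the groups, but same-numbered libraries correlated only between -0.08 and 0.11 in their deviations, so they were not treated as pairs. The library names number the monoculture and hepatic replicates alike, so matching by name or by title is the same for these groups. Some cardiac names carry numbers without a counterpart in the other groups, so cardiac libraries would partly line up otherwise. Matching the cardiac libraries by name was not examined. The check cannot tell whether libraries share a seeding or plate. The block below uses the title numbers too. A replicate block gave 19 genes higher in place of 16 in the hepatic and 17 in place of 13 in the cardiac co-culture; between the co-cultures HK1 no longer passed (adjusted p = 0.0538) and GYS1 did (0.0472). SLC16A1, TIGAR and ALDOA lie near the lowest levels tested, where few counts limit precision.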
